A study of Homo sapiens with 61 samples.

Results

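The 10 genes described here encode enzymes that build serine, glycine, asparagine, proline and cysteine or carry one-carbon units through mitochondrial folate. They are PHGDH, PSAT1 and PSPH (serine synthesis), SHMT2, MTHFD2 and ALDH1L2 (mitochondrial folate), ASNS (asparagine), ALDH18A1 and PYCR1 (proline) and CTH (cysteine). The genes were chosen by name, as a list whose response to vincristine in the reference lines of both experiments, and the difference between those responses, was already known from these data. They are 10 of the 58440 genes in the tables, and all 10 had enough reads to be tested in both experiments.

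RNA was sequenced from 61 cultures of cortical-type neurons. The parent cells were WTC11, a widely used human iPSC line, in which a doxycycline-responsive cassette expresses the neurogenic factor NGN2. At day 14 the neurons received 5 nM vincristine, a drug that blocks microtubule assembly, or its vehicle DMSO (called untreated) for 16 h. Experiment 1 held wild-type cells (WT), knockouts of the axonal injury kinase DLK (gene MAP3K12; DLK KO), of the related kinase LZK (MAP3K13; LZK KO) and of both (double KO), with 4 untreated and 4 vincristine libraries each. Experiment 2 held cells that carry the CRISPR interference machinery and a lentiviral guide RNA that was scrambled (Control gRNA), against the transcription factor ATF2 or against JUN, with 5 untreated and 5 vincristine libraries each, except 4 for ATF2 gRNA with vincristine. The labels do not say whether a knockout line is 1 clone, or whether libraries of a group came from separate differentiations, so p-values measure the spread between these libraries only.

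Serine synthesis branches from glycolysis at 3-phosphoglycerate: PHGDH oxidises it, PSAT1 transfers an amino group from glutamate, and PSPH removes the phosphate. SHMT2 then splits serine in mitochondria into glycine and a one-carbon unit on folate, which MTHFD2 and ALDH1L2 oxidise further for export or for NADPH. Genes of this group are textbook targets of the transcription factor ATF4, which is translated when the integrated stress response is active, and DLK and LZK are known for carrying the signal of axonal or microtubule injury to the neuronal nucleus.

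Library totals ran from 8.41 to 14.6 M counts (median 10.3) in experiment 1 and from 38.9 to 88.4 M (median 53.5) in experiment 2, and no pair of replicates held the same counts beyond sampling noise. Levels are given in CPM, counts scaled to library size with TMM factors within an experiment. The targeted genes were checked in untreated libraries: against 91.0 CPM in WT, MAP3K12 had 26.3 in DLK KO and 19.7 in double KO. Against 99.1 in WT, MAP3K13 had 31.9 in LZK KO and 29.6 in double KO. With their own guides, ATF2 had 0.526 CPM (129 with the control guide) and JUN 2.87 (88.5 with the control guide). All 8 neuron markers (MAP2, TUBB3, RBFOX3, DCX, STMN2, SYN1, SLC17A6 and SLC17A7) averaged at least 1 CPM in every group. Their summed level differed between untreated lines. It ran from 4028 CPM in DLK KO to 6762 in double KO, with WT at 5333, and from 4823 in ATF2 gRNA to 6226 in Control gRNA. The part of this in the values below was not tested. WT vincristine replicate 4 stood apart from the other 3 libraries of its group: JUN was 288.9 CPM in it against 538.0 to 629.0, NES 893.6 against 1552 to 1919, and 3 of the 10 enzymes lay far from the other 3 libraries. The values in WT are therefore also given without it. The log2 fold changes were then 2.39 for PHGDH, 2.38 for ALDH1L2, 2.20 for ASNS, 2.08 for SHMT2, 0.92 for CTH and -0.37 for ALDH18A1, and the other 4 stand beside their values below.

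Reference promoter sequence was on hand for 6 of the 10 genes (7 windows of 300 bases, from 250 bases before to 50 bases after a RefSeq gene start, GRCh38.p14). Both strands were searched for TGATGNAA, the core of the element that C/EBP and ATF4 dimers bind, for TGACGTCA, the cAMP response element, and for TGANTCA, the AP-1 site. The bases before the gene start are shown for ASNS (chr7:97872409-97872658, minus strand), whose amino acid response element is the textbook case, for PHGDH (chr1:119711684-119711933, plus strand), whose response differed most between the experiments, and for ALDH18A1 (chr10:95656712-95656961, minus strand), which was lower with vincristine in WT. They are written 5′ to 3′, with matches in capitals.
ASNS: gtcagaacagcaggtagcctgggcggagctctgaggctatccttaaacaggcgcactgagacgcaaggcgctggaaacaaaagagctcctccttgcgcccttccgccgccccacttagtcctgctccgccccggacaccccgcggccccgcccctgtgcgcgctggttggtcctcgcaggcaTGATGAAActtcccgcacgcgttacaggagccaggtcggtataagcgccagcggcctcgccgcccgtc
PHGDH: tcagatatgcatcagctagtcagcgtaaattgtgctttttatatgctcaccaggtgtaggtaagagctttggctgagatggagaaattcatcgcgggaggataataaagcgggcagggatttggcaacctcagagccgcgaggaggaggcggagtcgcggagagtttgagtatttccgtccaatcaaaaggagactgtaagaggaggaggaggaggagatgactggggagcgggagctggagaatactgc
ALDH18A1: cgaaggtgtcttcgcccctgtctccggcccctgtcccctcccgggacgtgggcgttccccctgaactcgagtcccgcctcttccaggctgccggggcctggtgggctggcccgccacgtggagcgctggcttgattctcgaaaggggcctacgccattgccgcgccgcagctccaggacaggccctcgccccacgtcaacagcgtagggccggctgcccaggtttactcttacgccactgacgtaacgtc
The ASNS window held the match TGATGAAA, 68 bases before the gene start on the gene's own strand. It was the only match to any of the 3 motifs in the 7 windows, which also covered PSAT1, MTHFD2, CTH and a second ASNS start. Of all 35116 windows of this length, 3.62% held TGATGNAA, 1.85% TGACGTCA and 7.71% TGANTCA. A match is a run of letters and not a measured binding site.

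In WT neurons 8 of the 10 transcripts were higher with vincristine, PYCR1 stayed within the spread of its libraries and ALDH18A1 was lower. The summed level of the 10 went from 287 ± 11.0 CPM (SD, n = 4) to 844 ± 65.9. In Control gRNA the same 8 transcripts were higher, most by smaller folds, and the sum went from 995 ± 57.7 CPM (n = 5) to 1401 ± 37.4. These responses were known when the genes were chosen, so they are given as a description. By the threshold used throughout (adjusted p under 0.05 over all genes tested, quasi-likelihood test of edgeR), 8 of 10 were called higher in WT, where 15.7% of 18235 genes were, and 1 was called lower, where 14.5% were. In Control gRNA 8 were called higher, where 17.1% of 20759 genes were. The plot of every library shows both experiments side by side.

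**Figure D1:**
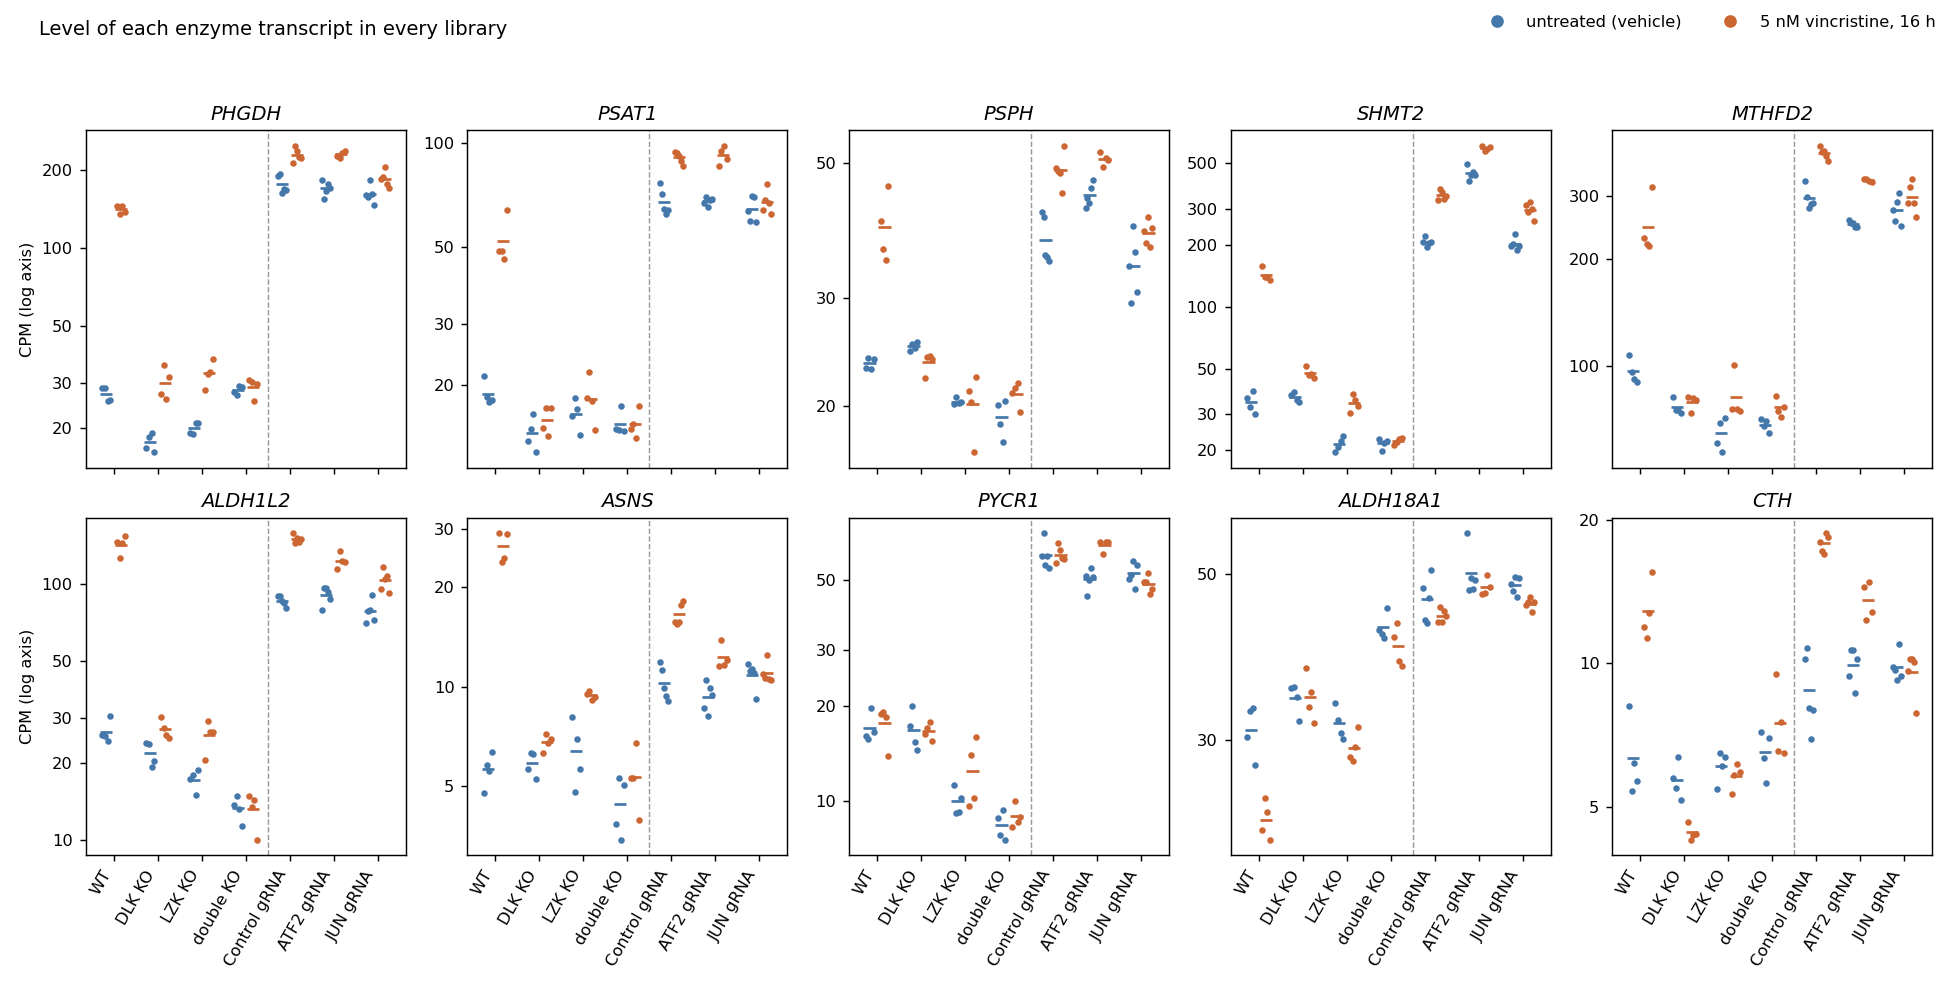
Level of each of the 10 transcripts in all 61 libraries (CPM, log axis), by line, with untreated libraries in blue and vincristine libraries in orange; short bars are group means and the dashed line separates the experiments, which were scaled separately. PHGDH in WT sits between 25.4 and 28.7 CPM untreated and between 136 and 146 with vincristine, and in untreated Control gRNA between 163 and 194.

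PHGDH (chromosome 1, 119648411 to 119744226, GRCh38), the first enzyme of serine synthesis, stood at 28.7, 28.6, 25.4 and 25.6 CPM in the 4 untreated WT libraries and at 145.7, 135.6, 144.7 and 138.0 with vincristine. Every vincristine library was thus far above every untreated one, a log2 fold change of 2.38 ± 0.08 (SE) or 5.21-fold. In DLK KO it stood at 16.8, 18.6, 19.1 and 16.1 CPM untreated and at 27.2, 35.1, 26.1 and 31.5 with vincristine, and in LZK KO at 19.1, 19.0, 21.0 and 21.0 against 28.0, 32.6, 32.9 and 37.0. The groups did not overlap in either single knockout, and PHGDH rose by 0.76 ± 0.09 in DLK KO (adjusted p = 2.65e-07) and by 0.70 ± 0.09 in LZK KO (adjusted p = 1.76e-06). In double KO the libraries mixed, at 27.6, 26.8, 29.1 and 28.9 CPM untreated and 30.7, 30.2, 25.4 and 29.7 with vincristine (0.05 ± 0.09, adjusted p = 0.93).

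In experiment 2 PHGDH was already high in CPM without the drug. The experiments were scaled separately, so its place against WT is only a description. Untreated Control gRNA stood at 189.5, 193.5, 162.8, 169.8 and 167.0 CPM, above all 4 vincristine libraries of WT, and vincristine Control gRNA at 212.8, 248.8, 236.5, 224.4 and 223.6, which is 1.30-fold higher (0.38 ± 0.06). ATF2 gRNA went from a range of 155 to 183 CPM to a range of 224 to 238, and PHGDH rose by 0.43 ± 0.06 (adjusted p = 2.55e-06). JUN gRNA went from 160.5, 157.3, 184.0, 161.9 and 146.7 CPM to 185.3, 188.5, 205.9, 177.1 and 170.1. These groups overlapped, and the rise of 0.19 ± 0.06 (adjusted p = 0.011) was lost without the fifth untreated or the third vincristine library (0.15 each).

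PSAT1 (chromosome 9, 78297143 to 78330093), the aminotransferase of the second step, stood at 21.2, 18.5, 17.9 and 18.1 CPM in untreated WT and at 48.8, 48.8, 46.2 and 64.1 with vincristine. The log2 fold change was 1.46 ± 0.11, and 1.34 without replicate 4, the library at 64.1. In the knockouts the untreated and vincristine libraries of PSAT1 overlapped, with differences of 0.13 ± 0.12 (DLK KO), 0.14 ± 0.12 (LZK KO) and -0.01 ± 0.12 (double KO), none of them called. Control gRNA went from 62.4 to 76.7 CPM to 85.9 to 94.2 (0.42 ± 0.06) and ATF2 gRNA from 65.5 to 69.9 to 85.7 to 98.2, a rise of 0.44 ± 0.06 (adjusted p = 1.35e-06). JUN gRNA libraries overlapped between 59.3 to 70.3 CPM untreated and 62.2 to 76.3 with vincristine (0.07 ± 0.06, adjusted p = 0.538).

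PSPH (chromosome 7, 56011051 to 56051604), the phosphatase of the last step, had the smallest WT difference of the serine enzymes. It went from 23.0, 24.0, 23.0 and 23.8 CPM to 40.1, 36.2, 34.7 and 45.8 in WT (0.74 ± 0.08, and 0.66 without replicate 4). No knockout passed the test, with values of -0.09 ± 0.08 (DLK KO), -0.02 ± 0.09 (LZK KO) and 0.13 ± 0.08 (double KO). The vincristine libraries of DLK KO (22.2 to 24.1 CPM) lay below its untreated ones (24.6 to 25.4). Groups were apart for 19.5% of all genes tested in DLK KO, so nothing is read from this. In Control gRNA it was higher by 0.38 ± 0.06, without overlap (34.5 to 41.4 CPM against 44.5 to 53.3). The value in ATF2 gRNA was 0.20 ± 0.07 (adjusted p = 0.0737), with groups apart at 42.1 to 46.8 and 49.2 to 52.0 CPM, and was called by DESeq2, with a filter at a mean of 1 CPM and in a fit of ATF2 gRNA alone (0.21 to 0.22). In JUN gRNA PSPH passed narrowly at 0.18 ± 0.06 (adjusted p = 0.0475), a call lost without library 1, 2 or 5 of the untreated or 1, 3 or 5 of the vincristine group (0.13 to 0.18), and without a filter on low counts, with the replicate block or in a fit of JUN gRNA alone (0.16 to 0.18).

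SHMT2 (chromosome 12, 57229327 to 57234935), the mitochondrial serine hydroxymethyltransferase, rose or was higher in every line except double KO. In WT it went from 35.8, 32.5, 39.1 and 30.2 CPM to 158.1, 139.7, 139.9 and 134.2, a 4.15-fold difference (2.05 ± 0.08). In DLK KO it went from 37.2, 38.6, 35.3 and 34.3 to 51.5, 46.4, 47.0 and 45.1 CPM, a rise of 0.39 ± 0.08 (adjusted p = 0.00157). In LZK KO it went from 19.6, 20.8, 22.2 and 23.4 to 30.3, 37.4, 35.2 and 32.8 CPM, a rise of 0.66 ± 0.08 (adjusted p = 1.42e-06). Neither single knockout had overlapping groups, whereas in double KO the 8 libraries lay between 19.8 and 23.0 CPM (0.04 ± 0.08, adjusted p = 0.93).

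SHMT2 showed the largest untreated difference of any member in experiment 2. Untreated Control gRNA stood at 207.2, 220.9, 195.2, 203.5 and 206.5 CPM, untreated JUN gRNA at 198.2, 202.1, 225.9, 189.0 and 197.6, and untreated ATF2 gRNA at 494.4, 409.9, 436.0, 453.2 and 436.8. The ATF2 gRNA libraries were all far above the others, a rise of 1.11 ± 0.05 over Control gRNA (2.16-fold, adjusted p = 5.78e-21). With vincristine SHMT2 was higher by 0.76 ± 0.05 in Control gRNA (329 to 375 CPM). It rose by 0.41 ± 0.05 in ATF2 gRNA (574 to 608 CPM, adjusted p = 9.82e-07) and by 0.55 ± 0.05 in JUN gRNA (262 to 324 CPM, adjusted p = 3.93e-11). Transcripts beside SHMT2 also differed in untreated ATF2 gRNA. NXPH4, the neighbour on 1 side, stood at 1.31, and AC137834.2, which overlaps SHMT2 on the other strand, at 2.81. The 20 nearest tested genes had a median of 0.51. Of them 11 were called, where 19.7% of all genes were called higher and 20.2% lower. In untreated double KO, where SHMT2 was lower than in WT (-0.67 ± 0.08), NXPH4 stood at -1.17 and AC137834.2 at -1.55. The median over the 20 genes was -0.20. Of them 9 were called, where 23.6% of all genes were called higher and 22.1% lower. SHMT2 was about as much lower in untreated LZK KO (-0.68 ± 0.08), with NXPH4 at 0.07, AC137834.2 at -0.21 and a median of -0.07. Whether SHMT2 differed together with its neighbours was not tested. The strand setting of the counting is not given in the sources used here, so reads of SHMT2 and AC137834.2 cannot be told apart with certainty. The same limit holds for MTHFD2, ALDH1L2, ASNS and PYCR1, which also overlap annotated genes on the other strand. ASNS, PYCR1 and CTH overlap an annotated gene on their own strand (AC079781.5, MYADML2 and RF00017).

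MTHFD2 (chromosome 2, 74198562 to 74217565), the mitochondrial dehydrogenase that acts after SHMT2, went from 107.5, 96.0, 92.1 and 90.0 CPM to 228.4, 220.0, 217.7 and 317.8 in WT (1.35 ± 0.10, and 1.20 without replicate 4, the library at 317.8). In DLK KO the groups overlapped (0.05 ± 0.10, adjusted p = 0.795). In double KO they were apart, at 64.9 to 70.9 CPM untreated and 72.0 to 82.5 with vincristine, as were 9.94% of all genes tested. The value of 0.16 ± 0.10 was not called (adjusted p = 0.802). In LZK KO it rose by 0.34 ± 0.10 (adjusted p = 0.0434), from 60.6, 69.3, 57.2 and 71.2 CPM to 75.6, 100.5, 75.7 and 74.9. That call was lost without untreated replicate 1, 2 or 3 (0.31, 0.38 and 0.30) or vincristine replicate 2, the library at 100.5 (0.23), with the replicate number as a block (0.34, adjusted p = 0.0534) and in a fit of the LZK KO libraries alone (0.35, adjusted p = 0.169). Control gRNA went from 278 to 331 CPM to 375 to 415 (0.42 ± 0.05), and ATF2 gRNA rose from 245 to 257 to 329 to 336 (0.41 ± 0.06, adjusted p = 4.05e-06). JUN gRNA groups overlapped (0.12 ± 0.05, adjusted p = 0.13).

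ALDH1L2 (chromosome 12, 105019784 to 105084577), the mitochondrial formyl-tetrahydrofolate dehydrogenase that yields NADPH, had the largest WT value of the 10. It went from 25.7, 25.4, 24.4 and 30.4 CPM to 144.6, 125.3, 143.2 and 153.5 (2.42 ± 0.10, 5.36-fold). It rose by 0.57 ± 0.12 in LZK KO (adjusted p = 0.00155), from 15.0 to 18.7 CPM to 20.5 to 29.2 without overlap. In DLK KO the groups were also apart, at 19.4 to 24.0 and 25.0 to 30.3 CPM, as were 19.5% of all genes tested. The value of 0.31 ± 0.11 was not called (adjusted p = 0.0748), except by limma voom (0.31) and in a fit of DLK KO alone (0.32). In double KO it was -0.02 ± 0.12, with all 8 libraries between 10.0 and 14.9 CPM. In experiment 2 it was higher by 0.80 ± 0.06 in Control gRNA (80.6 to 89.2 CPM against 144 to 157) and rose by 0.44 ± 0.06 in ATF2 gRNA (adjusted p = 6.17e-06) and 0.40 ± 0.06 in JUN gRNA (adjusted p = 2.06e-06).

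ASNS (chromosome 7, 97852118 to 97872542), which makes asparagine from aspartate and glutamine, stood at 4.78, 5.78, 5.55 and 6.36 CPM in untreated WT and at 29.2, 23.9, 24.6 and 29.0 with vincristine (2.24 ± 0.13, 4.74-fold). All vincristine libraries were well above the untreated ones. In LZK KO it went from 8.07, 4.81, 6.94 and 5.65 CPM to 9.53, 9.74, 9.11 and 9.32, a rise of 0.56 ± 0.15 (adjusted p = 0.024). The call was lost without untreated replicate 2 (0.45) or 4 (0.50) or vincristine replicate 1 (0.55) or 2 (0.54). The call was also lost under limma voom (0.42, adjusted p = 0.104) and in a fit of the LZK KO libraries alone (0.57, adjusted p = 0.112). In DLK KO the groups were apart, at 5.27 to 6.28 CPM untreated and 6.31 to 7.17 with vincristine, as were 19.5% of all genes tested. The value of 0.21 ± 0.15 was not called, nor was 0.27 ± 0.16 in double KO, where the groups overlapped. Up to 4 ASNS pseudogenes drew reads of their own, summing to at most 1.37 CPM and to between 1.49% and 29.2% of ASNS by group, so part of the ASNS reads may be split with them. ASNSP6 alone stood at 20.3% of ASNS in untreated WT (1.14 CPM) and at 2.46% with vincristine (0.656 CPM). In experiment 2 it was at most 0.487% in any group. Its part in the ASNS values of WT and in their difference from Control gRNA was not tested.

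In Control gRNA ASNS went from 11.9, 11.2, 9.91, 9.37 and 9.04 CPM to 15.7, 15.5, 15.7, 17.7 and 18.2 (0.69 ± 0.09), without overlap. These levels were below every vincristine library of WT, which was scaled separately, so this is only a description. ASNS rose by 0.40 ± 0.10 in ATF2 gRNA (adjusted p = 0.00898; 0.34 and not called without vincristine replicate 3). In JUN gRNA the 10 libraries lay together, at 11.7, 11.2, 11.3, 11.0 and 9.15 CPM untreated and 10.9, 10.7, 12.5, 10.6 and 10.5 with vincristine (0.02 ± 0.09, adjusted p = 0.939).

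The proline enzymes did not follow the others. PYCR1 (chromosome 17, 81932384 to 81942412), the reductase of the last step, stood at 16.1, 15.8, 19.7 and 16.5 CPM in untreated WT and at 18.8, 19.2, 18.5 and 13.9 with vincristine. The groups overlapped (0.05 ± 0.12, and 0.14 without replicate 4, the library at 13.9), as they did in Control gRNA (0.01 ± 0.06). PYCR1 rose in ATF2 gRNA, from 51.7, 44.5, 50.0, 54.5 and 51.2 CPM to 65.8, 60.7, 66.0 and 66.0 (0.36 ± 0.07, adjusted p = 0.000209), without overlap. ALDH18A1 (chromosome 10, 95605929 to 95656706), the synthase of the first step, went from 30.3, 32.8, 33.1 and 27.8 CPM to 22.8, 25.1, 24.1 and 22.1 in WT, the only member lower there (-0.40 ± 0.07). In the other 6 lines its value lay between -0.11 and 0.00 and was not called.

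CTH (chromosome 1, 70411218 to 70439851), which releases cysteine from cystathionine, gave like values in the reference lines of both experiments. It went from 8.13, 5.41, 6.18 and 5.66 CPM to 12.0, 11.3, 12.8 and 15.5 in WT (1.02 ± 0.13). In Control gRNA it went from 10.2, 10.8, 8.05, 6.93 and 7.98 CPM to 18.0, 17.2, 17.0, 18.8 and 18.4 (1.03 ± 0.10). Neither pair of groups overlapped. In ATF2 gRNA it rose by 0.45 ± 0.11 (adjusted p = 0.00459), from 8.68 to 10.7 CPM to 12.3 to 14.8. The other lines did not pass, at -0.37 ± 0.15 for DLK KO (adjusted p = 0.126), -0.07 ± 0.15 for LZK KO, 0.19 ± 0.13 for double KO and -0.03 ± 0.10 for JUN gRNA. The 4 vincristine libraries of DLK KO (4.27 to 4.66 CPM) lay below its untreated ones (5.16 to 6.36). Groups were apart for 19.5% of all genes tested in DLK KO, so nothing is read from this.

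**Figure D2:**
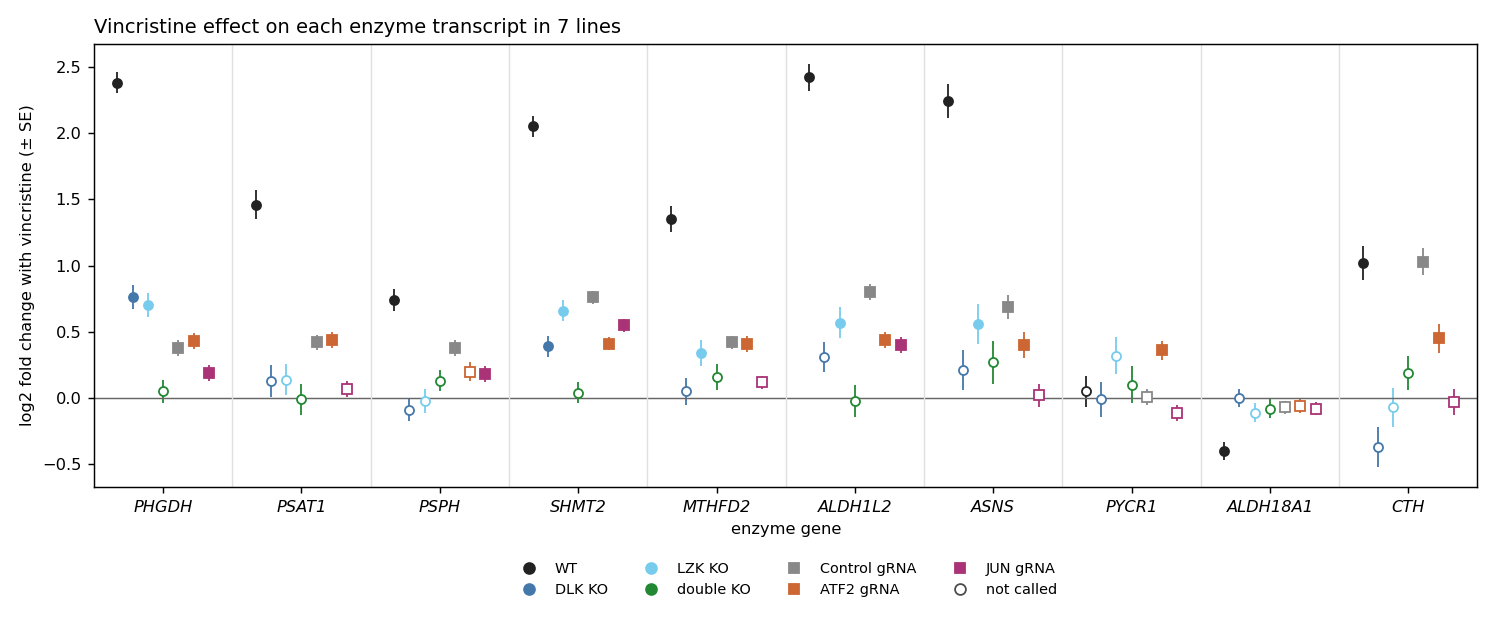
Log2 fold change of each transcript with vincristine against untreated (y axis, ± SE) in the 4 lines of experiment 1 (circles) and the 3 of experiment 2 (squares); filled symbols are called at an adjusted p under 0.05. WT lies highest for 7 members, from 0.74 for PSPH to 2.42 for ALDH1L2, CTH is alike in WT and Control gRNA, and no symbol of double KO is filled.

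Counted by line, vincristine raised 2 of the 10 in DLK KO (PHGDH and SHMT2), where 4.24% of all genes tested were called higher, and 5 in LZK KO, where 2.27% were. In double KO 0 of the 10 were called by edgeR, DESeq2 or limma voom, and 0 had an unadjusted p under 0.05, where 0.0658% of all genes were called in either direction. A fit of the double KO libraries alone called 1, MTHFD2 (0.17). In ATF2 gRNA 8 of the 10 rose, where 1.88% of all genes tested were called higher, and in JUN gRNA 4 did, where 7.58% were. The median log2 fold change of the 10 was 1.4 for WT, 0.33 for LZK KO, 0.09 for DLK KO and 0.07 for double KO, beside medians over all genes within 0.01 of 0. The 5 of LZK KO fell to 3 when library 2 of its untreated or of its vincristine group was left out, and the 4 of JUN gRNA to 2 without untreated library 5 or vincristine library 3.

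The difference in response between lines was tested as an interaction. The comparisons with WT and Control gRNA use the vincristine response that chose the genes and share those libraries with each other, so they are given as a description. The response was smaller than in WT for 8 of 10 in DLK KO (9.41% of all genes called lower), for 8 in LZK KO (6.53%) and for 8 in double KO (10.2%). The differences ran from -2.11 ± 0.15 (ALDH1L2) to -0.82 ± 0.12 (PSPH) in DLK KO, from -1.85 ± 0.15 (ALDH1L2) to -0.75 ± 0.12 (PSPH) in LZK KO and from -2.44 ± 0.16 (ALDH1L2) to -0.61 ± 0.12 (PSPH) in double KO. Without WT vincristine replicate 4 the same 2 genes bounded these ranges, at -2.07 and -0.74 for DLK KO, -1.80 and -0.67 for LZK KO and -2.40 and -0.52 for double KO. ALDH18A1 had the opposite sign, with a difference called higher by 0.40 ± 0.10 in DLK KO (9.95% of all genes called higher) and by 0.32 ± 0.10 in double KO (9.21%). As the only member called higher in either, it makes a count near these shares. Both ALDH18A1 calls were lost without a filter on low counts (0.41, adjusted p = 0.0574, and 0.32, adjusted p = 0.168). The double KO call was also lost without replicate 2 or 3 of untreated WT or of untreated double KO, or without vincristine replicate 1 of WT or 2 of double KO (0.28 to 0.30).

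Against Control gRNA, the response in JUN gRNA was smaller for 6 of 10 (7.06% of all genes called lower). The largest was CTH (-1.06 ± 0.14), then ASNS (-0.67 ± 0.13), ALDH1L2 (-0.40 ± 0.08), PSAT1 (-0.36 ± 0.08), MTHFD2 (-0.30 ± 0.07) and SHMT2 (-0.21 ± 0.07). The SHMT2 call was lost in 8 of the fits that left out 1 library (-0.21 to -0.17), namely replicates 3 and 4 of untreated and 2 and 3 of vincristine Control gRNA, and 2 and 3 of untreated and 2 and 5 of vincristine JUN gRNA. In ATF2 gRNA it was smaller for 3 (10.4% of all genes called lower), CTH (-0.57 ± 0.15), ALDH1L2 (-0.36 ± 0.09) and SHMT2 (-0.35 ± 0.07), and larger for PYCR1 alone (0.35 ± 0.09; 10.2% called higher). The count called larger is near its share over all genes.

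Contrasts that do not use the reference lines with vincristine were tested. PHGDH responded less in double KO than in DLK KO, by -0.72 ± 0.13 (adjusted p = 0.000893), the only 1 of 10 called, where 1.01% of all genes were called lower. Its mean with vincristine was similar in DLK KO, LZK KO and double KO (29.96, 32.64 and 29.0 CPM). Untreated, the means were 17.65, 20.02 and 28.08 CPM, so these lines differed mostly in the untreated level. PHGDH also responded less in double KO than in LZK KO, by -0.66 ± 0.13 (adjusted p = 0.00274), with SHMT2 at -0.61 ± 0.12 (adjusted p = 0.00335), so 2 of 10 were called where 0.746% of all genes were. ALDH1L2 stood at -0.59 ± 0.17 in that contrast (adjusted p = 0.0919) and was called (-0.69) when vincristine replicate 1 of LZK KO was left out, by DESeq2 (-0.59) and without a filter on low counts (-0.60). ATF2 gRNA responded more than JUN gRNA for 3 of 10, where 0.910% of all genes were called higher: PYCR1 (0.47 ± 0.09, adjusted p = 0.000667), PSAT1 (0.37 ± 0.08, adjusted p = 0.004) and MTHFD2 (0.29 ± 0.08, adjusted p = 0.0273). The MTHFD2 call was lost when JUN gRNA lacked untreated library 3 (0.27) or 4 (0.25), or vincristine library 1 or 4 (0.28 each), and under limma voom (0.23).

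The untreated level of some members differed between lines as well. The untreated WT and Control gRNA libraries belong to the contrasts that chose the genes, which limits how independent these tests are. In DLK KO 4 of the 10 were lower than in WT, where 17.9% of all genes tested were: PHGDH (-0.61 ± 0.09, adjusted p = 1.08e-06), PSAT1 (-0.38 ± 0.11, adjusted p = 0.00953), MTHFD2 (-0.33 ± 0.10, adjusted p = 0.0066) and ALDH1L2 (-0.28 ± 0.11, adjusted p = 0.0475). The count fell to 2 without untreated replicate 1 of WT or 4 of DLK KO, where PSAT1 stood at -0.31 in both. ALDH1L2 was also lost without untreated replicate 2 (-0.30) or 4 (-0.20) of WT or 3 (-0.21) of DLK KO, with RLE factors (-0.27), without a filter on low counts (-0.26) and with the replicate block (-0.28).

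In untreated LZK KO 5 of the 10 were lower, where 16.8% of all genes were: PYCR1 (-0.78 ± 0.13, adjusted p = 1.52e-05), SHMT2 (-0.68 ± 0.08, adjusted p = 2.58e-08), ALDH1L2 (-0.62 ± 0.11, adjusted p = 3.48e-05), MTHFD2 (-0.58 ± 0.10, adjusted p = 1.16e-05) and PHGDH (-0.43 ± 0.09, adjusted p = 0.000247). In untreated double KO 6 were lower, where 22.1% of all genes were, led by PYCR1, at 8.84, 7.78, 9.39 and 7.54 CPM against 16.1, 15.8, 19.7 and 16.5 in WT (-1.02 ± 0.13, adjusted p = 4.59e-08), and ALDH1L2, at 13.7, 14.9, 13.2 and 11.4 against 25.7, 25.4, 24.4 and 30.4 (-0.99 ± 0.11, adjusted p = 3.31e-09). Both were at about the same share of WT, without overlap, as were 47.2% of all genes tested in this comparison. SHMT2 (-0.67 ± 0.08), MTHFD2 (-0.50 ± 0.10), PSPH (-0.29 ± 0.08) and PSAT1 (-0.29 ± 0.11, adjusted p = 0.0366) followed, of which PSAT1 was lost without WT untreated replicate 1 (-0.22) or double KO untreated replicate 1, 2 or 4 (-0.26, -0.26 and -0.28), or without a filter on low counts (-0.28). ALDH18A1 rose by 0.45 ± 0.07 (adjusted p = 1.63e-06; 23.6% of all genes called higher), and PHGDH was level with WT (0.05 ± 0.09). No other member was called higher, so that count is below the share over all genes.

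In untreated ATF2 gRNA 2 of the 10 were higher than in Control gRNA, where 19.7% of all genes were: SHMT2, as given above, and PSPH (0.24 ± 0.06, adjusted p = 0.00178). MTHFD2 (-0.24 ± 0.05, adjusted p = 0.000276) and PYCR1 (-0.25 ± 0.06, adjusted p = 0.000805) were lower, where 20.2% of all genes were. Both counts in ATF2 gRNA were near these shares, so nothing about the list is read from them. In untreated JUN gRNA PYCR1 alone passed (-0.19 ± 0.06, adjusted p = 0.0355; 5.46% of all genes called lower), a count near that share. The PYCR1 call was lost without untreated replicate 1, 2 or 4 of either line (-0.19 to -0.13), under limma voom (-0.14) and in a fit of these groups alone (-0.19), and the count was 3 without replicate 3 of JUN gRNA. No member had groups apart in this comparison, where 9.22% of all genes did.

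**Figure D3:**
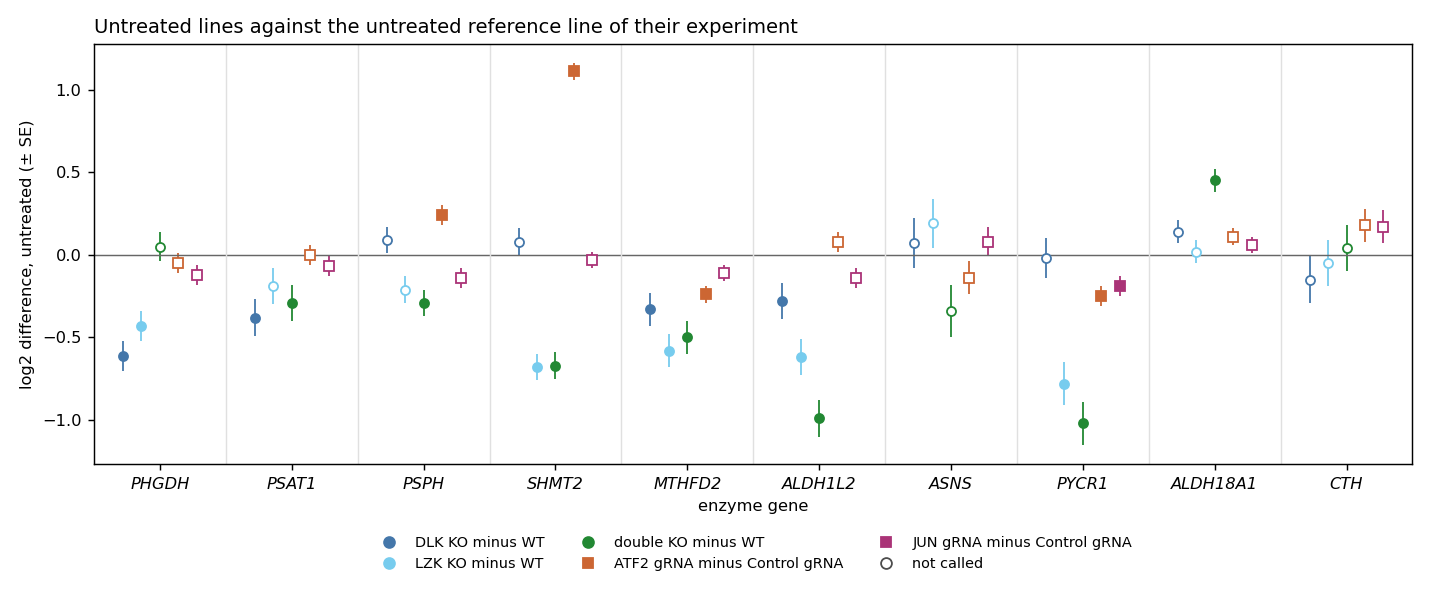
Log2 difference (y axis, ± SE) of each transcript between an untreated modified line and the untreated reference line of its experiment, with experiment 1 as circles and experiment 2 as squares; filled symbols are called at an adjusted p under 0.05. SHMT2 in ATF2 gRNA stands highest at 1.11, and PYCR1 (-1.02) and ALDH1L2 (-0.99) in double KO lowest.

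The reference lines of the experiments differed in the untreated level of these transcripts. The ratio of untreated Control gRNA to untreated WT was above 1 for all 10, from 1.39 (CTH) to 6.52 (PHGDH), with a median of 3.16. Over the 16925 genes with a level in both it had a median of 1.01 and quartiles of 0.614 and 1.48, and 2.33% of genes reached 3.16. These untreated libraries belong to the contrasts that chose the genes, so the ratios and this share are only a description. For PHGDH, SHMT2, PYCR1 and ALDH18A1 every untreated Control gRNA library lay above every vincristine library of WT. The share of all genes apart in this way was not computed, so nothing is read from it. The tables were scaled separately and the experiments also differ in the CRISPR interference machinery, lentivirus and depth, so the line cannot be told apart from these, and no test was made of the levels.

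In 1 fit across both experiments the vincristine response was larger in WT than in Control gRNA for 6 of 10, where 0.761% of 23134 genes were called higher. This difference was part of why the genes were chosen, so nothing is read from it. It was largest for PHGDH (1.97 ± 0.10), then ALDH1L2 (1.59 ± 0.10), ASNS (1.53 ± 0.15), SHMT2 (1.26 ± 0.10), PSAT1 (1.00 ± 0.13) and MTHFD2 (0.90 ± 0.14). Without WT vincristine replicate 4 those of PSAT1 and MTHFD2 were 0.86 and 0.72. PSPH (0.33 ± 0.12), PYCR1 (0.01 ± 0.14) and CTH (-0.04 ± 0.20) were not called, nor was ALDH18A1 (-0.36 ± 0.10), which was called without WT untreated replicate 4, WT vincristine replicate 2 or 4 or Control gRNA untreated replicate 5 (-0.44 to -0.36). It was also called by DESeq2 (-0.32), with a filter at a mean of 1 CPM (-0.36), by limma voom (-0.35) and in 1 fit of all 61 libraries (-0.36, adjusted p = 0.00541). With vincristine, ALDH1L2 ended at nearly the same level in both lines (142 ± 11.8 and 149 ± 5.07 CPM), while ASNS ended higher in WT (26.7 ± 2.80 against 16.6 ± 1.28) and SHMT2 higher in Control gRNA (143 ± 10.4 against 349 ± 19.3).

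**Figure D4:**
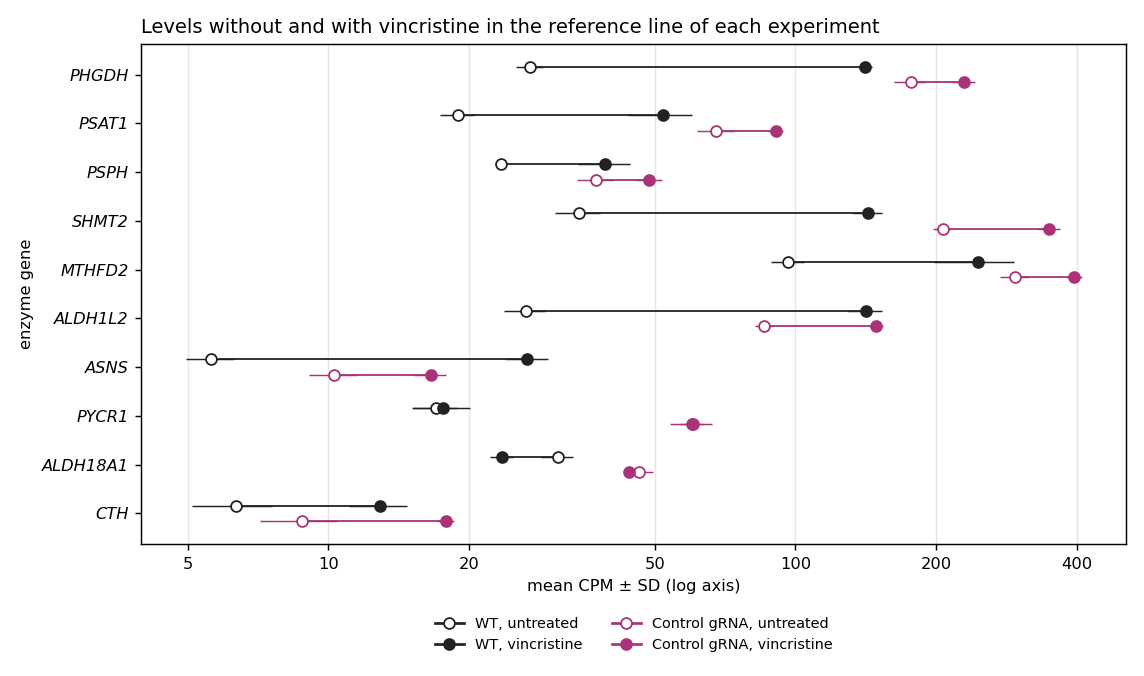
Mean level (CPM ± SD, log axis) of each transcript in WT (black) and Control gRNA (purple), untreated (open) and with vincristine (filled), joined by a line. WT starts lower for every member, and the PHGDH line runs from 27.1 to 141 CPM in WT and from 177 to 229 in Control gRNA.

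Levels of different genes were compared as CPM per kilobase of exon. The divisor pools all annotated exons of a gene (9217 bases for PHGDH, 2188 for PSAT1) and need not be the length of the transcript present. The order of genes depends on it, and other lengths were not tried. By this measure MTHFD2 was the highest of the 10 in untreated WT (19.8 ± 1.61). It was clear of PSAT1 (8.65 ± 0.71), PSPH (8.49 ± 0.188), ALDH18A1 (8.23 ± 0.654), SHMT2 (7.11 ± 0.797) and PYCR1 (5.89 ± 0.639), each of which overlapped the next in this order. ALDH1L2 (3.11 ± 0.315), PHGDH (2.94 ± 0.195) and CTH (2.63 ± 0.510) formed a lower trio of overlapping values, and ASNS was lowest (1.26 ± 0.147). With vincristine MTHFD2 (50.5 ± 9.87) still led, SHMT2 (29.6 ± 2.16) moved to the second place, and ALDH1L2 (16.7 ± 1.39) and PHGDH (15.3 ± 0.538) passed PSPH by mean, with overlap. In untreated Control gRNA the order began with MTHFD2 (60.7 ± 4.33), SHMT2 (42.7 ± 1.92) and PSAT1 (31.0 ± 2.76), which did not overlap, and ended with ASNS (2.31 ± 0.273).

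Over the 14 group means of log2 CPM, centred within each experiment, the 10 profiles were mostly alike. Pearson's r with the mean of the other members was 0.967 for ALDH1L2, 0.964 for PSAT1, 0.961 for MTHFD2 and between 0.874 and 0.913 for PSPH, ASNS, PHGDH and SHMT2. It was 0.723 for CTH, 0.540 for PYCR1 and -0.797 for ALDH18A1. The 5 genes outside the list whose group means were most like the members' mean, of 9627 compared, were GARS (r = 0.994), SLC3A2 (0.974), TARS (0.974), SLC7A5 (0.969) and CARS (0.964). GARS, TARS and CARS encode aminoacyl-tRNA synthetases, and SLC3A2 and SLC7A5 the 2 chains of an amino acid transporter. Each r rests on 14 points that share libraries and scaling within an experiment, and is a description. The WT and Control gRNA groups, whose responses were known when the genes were chosen, are among these points. WT vincristine stood far from the rest of experiment 1, with a mean log2 CPM over the members of 5.75 against 4.08 to 4.43. The r values therefore partly restate the choice of genes.

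Other genes of the same pathways were called lower more often than higher in both reference lines, where 14.5% (WT) and 18.1% (Control gRNA) of all genes tested were called lower and 15.7% and 17.1% higher. Of 20 further folate and glycine genes 19 were tested. In WT 1 was higher, MTHFD1L (0.78 ± 0.07), the mitochondrial formate synthetase, and 8 were lower, among them SHMT1 (-0.91 ± 0.20), the cytosolic counterpart of SHMT2, and GLDC (-0.87 ± 0.12) of the glycine cleavage system. In Control gRNA 3 were higher, MTHFD1L (0.43 ± 0.05) and the thymidylate synthase TYMS (0.58 ± 0.22) among them, and 6 lower, GLDC (-0.97 ± 0.07) and GGH (-0.44 ± 0.08) among them. MTHFD2L, the close relative of MTHFD2, stood at -0.11 ± 0.12 in WT and at -0.32 ± 0.08 in Control gRNA. The median of the list was -0.13 in WT and -0.22 in Control gRNA.

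Of 14 further proline, glutamate and aspartate genes 12 were tested, and in WT 2 were higher, GPT2 (1.19 ± 0.11), an alanine aminotransferase, and ASS1 (0.44 ± 0.09), which joins citrulline to aspartate. In WT 6 were lower, including ALDH4A1 (-0.82 ± 0.15) of proline breakdown and OAT (-0.44 ± 0.12), which links ornithine to proline. PYCR3, a relative of PYCR1, stood at -0.57 ± 0.22 in WT and was called. In Control gRNA 3 of these genes were higher and 7 lower. All 10 further methionine, cysteine and glutathione genes were tested, with 1 higher (CSAD, 0.41 ± 0.12) and 3 lower (GCLC at -0.48 ± 0.10, MPST at -0.47 ± 0.14 and MAT2A at -0.42 ± 0.06) in WT. In Control gRNA 1 was higher (GCLM, 0.62 ± 0.10) and 4 lower, among them MAT2A (-0.44 ± 0.03) and CDO1 (-0.41 ± 0.05). None of the 5 glycolytic genes next to 3-phosphoglycerate was called higher in either reference line, and 2 were lower in WT (ENO1 at -0.24 ± 0.07 and PGAM1 at -0.32 ± 0.07) and all 5 in Control gRNA. The first 3 lists had no call in double KO with vincristine, nor did the glycolytic genes, where 0.0658% of all genes were called in either direction.

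Factors of the integrated stress response were called higher with vincristine in every line except double KO. Of 12 listed, 11 were tested, and with vincristine 11 were higher in WT (median log2 fold change 2.44), 5 in DLK KO, 9 in LZK KO, 0 in double KO, 8 with JUN gRNA and 10 each with Control gRNA (median 1.71) and ATF2 gRNA. The shares of all genes called higher were 15.7% (WT), 4.24% (DLK KO), 2.27% (LZK KO), 7.58% (JUN gRNA), 17.1% (Control gRNA) and 1.88% (ATF2 gRNA), and 0.0658% were called in either direction for double KO. ATF3 stood highest, at 3.98 ± 0.11 in WT and 3.48 ± 0.07 in Control gRNA. DDIT3 (CHOP) differed little between the reference lines, at 3.14 ± 0.16 in WT and 2.89 ± 0.07 in Control gRNA, as did TRIB3, at 2.44 ± 0.11 and 2.45 ± 0.07. The ATF4 transcript stood at 1.09 ± 0.09 in WT and at -0.10 ± 0.04 in Control gRNA, where it was called lower, and CHAC1 at 2.88 ± 0.12 and 0.56 ± 0.08. In the fit across both experiments all 12 were tested, and 5 responded more in WT than in Control gRNA, ATF3, ATF4 and CHAC1 among them. The median difference was 0.44, and 0.761% of all genes were called higher. MTHFD2L, TRIB3 and CHAC1 were named after their values were seen. These lists were drawn up with results of these data known and no test of a list was made.

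Markers of other cell types moved with some of these comparisons, and fewer cells of a type cannot be told apart from less RNA per cell in bulk libraries. The summed level of 6 neural progenitor markers, nearly all of it NES and VIM, went from 776 to 1683 CPM with vincristine in WT, from 270 to 596 in DLK KO, from 629 to 1129 in LZK KO, from 1352 to 2573 in Control gRNA and from 1037 to 1711 in JUN gRNA, and from 291 to 293 in double KO and from 803 to 782 in ATF2 gRNA. PAX6, which defines dorsal progenitors, was between 1.63 and 5.34 CPM in all groups. In untreated WT, LZK KO and double KO it stood at 1.72, 4.07 and 1.97 CPM. In the same order HES5 stood at 0.472, 5.12 and 2.67, SOX1 at 0.916, 4.33 and 0.688, and SOX9 at 3.58, 8.63 and 5.19. NES was lower in untreated double KO than in untreated WT (92.1 against 717.5 CPM), while VIM was higher (188.6 against 51.9). The 7 dividing cell markers summed to 12.2 CPM in untreated WT and 71.2 in LZK KO, and the 7 pluripotent cell markers to 26.3 in WT and 67.2 in double KO, and to 26.4 in Control gRNA and 58.4 in ATF2 gRNA. The part of any of these in the values above was not tested.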

How the data were processed

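Each experiment has 1 deposited table of unnormalised gene counts; all values are whole and library totals vary. Per the submitters' processing notes, reads were trimmed with cutadapt 3.4, aligned to GRCh38 with STAR and counted with featureCounts of Subread 2.0.1; the labels describe poly(A) selection and a stranded kit. The strand setting and the treatment of duplicates are not given in the sources used here. Of 58440 gene IDs, 56947 had the same version and position in GENCODE 29 and 58320 were matched to a symbol; 0 count columns were left unused.

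Each experiment was fitted alone with edgeR 4.0.16 (R 4.3.3): filterByExpr by group, TMM factors, a robust quasi-likelihood fit with 1 mean per group, and 2-sided p-values with Benjamini-Hochberg adjustment across every gene tested (threshold 0.05). WT and Control gRNA were also fitted together across experiments. Standard errors are the absolute log2 change over the root of its F statistic. There were 21 comparisons. Alternatives were DESeq2 1.42.0, RLE factors, no filter on low counts, keeping genes averaging at least 1 CPM, the replicate block, only the groups compared (all 61 libraries for the fit across experiments), limma 3.58.1 voom with quality weights, and each library left out. The fits were tested on simulated data. Likeness used log2 CPM (prior count 2) of group means, centred within each experiment, for genes with a mean of at least 3. Groups are apart when their libraries do not overlap. Figures were drawn with matplotlib 3.10.9 in Python 3.11.15.

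The members, the pathway and marker lists and the naming rule were chosen with earlier results of these data known. The rule names all members, the targeted genes, from each other list the 2 called genes highest and the 2 lowest with vincristine in WT and in Control gRNA, and the 5 genes most like the members.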

Additional observations from a re-analysis of the deposited data

Results flagged for a closer look

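Within a group of 4 or 5 libraries, 12 of 140 member and group combinations held a library far from the rest of its group, beside about 7 that chance gives. WT vincristine replicate 4 carried 3 of them, with PSAT1 at 64.05 CPM and MTHFD2 at 317.8 above, and PYCR1 at 13.91 below, the other 3 libraries. The remaining libraries of experiment 1 were WT untreated replicate 1 (PSAT1 at 21.22 CPM), double KO untreated replicate 3 (PSAT1 at 17.36), LZK KO vincristine replicate 2 (MTHFD2 at 100.5) and, below its group, DLK KO vincristine replicate 1 (PSPH at 22.23). In experiment 2, ALDH18A1 stood at 56.64 CPM in ATF2 gRNA untreated replicate 1 and ASNS at 12.46 in JUN gRNA vincristine replicate 3, above their groups. Below their groups were ASNS at 9.153 CPM in JUN gRNA untreated replicate 5, PYCR1 at 60.65 in ATF2 gRNA vincristine replicate 3 and CTH at 7.855 in JUN gRNA vincristine replicate 5.

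The vincristine response differed between lines by an interaction term in 48 of 90 member and contrast combinations, each given as a difference of log2 fold changes. In DLK KO minus WT these were ALDH1L2 -2.11, ASNS -2.04, SHMT2 -1.67, PHGDH -1.62, CTH -1.39, PSAT1 -1.33, MTHFD2 -1.30, PSPH -0.82 and ALDH18A1 0.40. In LZK KO minus WT they were ALDH1L2 -1.85, ASNS -1.69, PHGDH -1.68, SHMT2 -1.40, PSAT1 -1.31, CTH -1.09, MTHFD2 -1.01 and PSPH -0.75. In double KO minus WT they were ALDH1L2 -2.44, PHGDH -2.34, SHMT2 -2.01, ASNS -1.97, PSAT1 -1.46, MTHFD2 -1.19, CTH -0.83, PSPH -0.61 and ALDH18A1 0.32. These 3 contrasts share the WT libraries, so they are not separate evidence.

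Between knockouts, double KO minus DLK KO gave PHGDH -0.72, and double KO minus LZK KO gave PHGDH -0.66 and SHMT2 -0.61. In experiment 2, ATF2 gRNA minus Control gRNA gave CTH -0.57, ALDH1L2 -0.36, SHMT2 -0.35 and PYCR1 0.35, and JUN gRNA minus Control gRNA gave CTH -1.06, ASNS -0.67, ALDH1L2 -0.40, PSAT1 -0.36, MTHFD2 -0.30 and SHMT2 -0.21. For ATF2 gRNA minus JUN gRNA the values were MTHFD2 0.29, PSAT1 0.37 and PYCR1 0.47. Across the experiments, WT minus Control gRNA gave MTHFD2 0.90, PSAT1 1.00, SHMT2 1.26, ASNS 1.53, ALDH1L2 1.59 and PHGDH 1.97, where the line cannot be told apart from other differences between the experiments.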

How the results depend on the processing

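Each member's value in the 21 comparisons (210 results) was recomputed under 4080 alternatives in all. Direction and side of the threshold held in 3891, a call was lost in 68 (13 results), gained in 56 (20 results), and the sign changed in 65 (25 results), of which 0 were called; the cause was not tested. Counts of members called moved by over 1.5 times in 5 comparisons outside the fits that left out 1 library. A fit of only the groups compared gave 3 for vincristine in LZK KO, 1 in double KO, 2 for double KO minus DLK KO and 0 for untreated JUN gRNA. Limma voom with quality weights gave 2 for double KO minus DLK KO, adding SHMT2, and DESeq2 and the fit without a filter gave 5 each for ATF2 gRNA minus JUN gRNA. With 1 library left out, counts ran from 3 to 5 for vincristine in LZK KO, 2 to 5 in JUN gRNA, 2 to 4 for untreated DLK KO and 0 to 3 for untreated JUN gRNA.

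Sign changes under limma voom were PYCR1 in LZK KO minus WT (-0.06), PYCR1 in double KO minus LZK KO (0.06), CTH with vincristine in JUN gRNA (0.02), PSAT1 in ATF2 gRNA minus Control gRNA (-0.01), ALDH18A1 in JUN gRNA minus Control gRNA (0.02), PSPH in ATF2 gRNA minus JUN gRNA (-0.04), ALDH1L2 in ATF2 gRNA minus JUN gRNA (-0.02) and PYCR1 in WT minus Control gRNA (-0.01), and without a filter ALDH18A1 in ATF2 gRNA minus Control gRNA (-0.01). With 1 library left out, log2 values of vincristine effects that crossed 0 ran over PYCR1 -0.08 to 0.08 in DLK KO, PSPH -0.07 to 0.07 in LZK KO, PSAT1 -0.07 to 0.05 and ALDH1L2 -0.08 to 0.09 in double KO, PYCR1 -0.03 to 0.07 in Control gRNA and ASNS -0.05 to 0.05 and CTH -0.06 to 0.03 in JUN gRNA. Those of differences in response ran over PYCR1 -0.15 to 0.03 in DLK KO minus WT, PYCR1 -0.04 to 0.11 in double KO minus WT, ASNS -0.06 to 0.19 in double KO minus DLK KO, ALDH18A1 -0.01 to 0.06 in double KO minus LZK KO, PSAT1 -0.04 to 0.04, MTHFD2 -0.06 to 0.01 and ALDH18A1 -0.02 to 0.06 in ATF2 gRNA minus Control gRNA, ALDH18A1 -0.05 to 0.01 in JUN gRNA minus Control gRNA, PSPH -0.04 to 0.07 and ALDH1L2 -0.02 to 0.09 in ATF2 gRNA minus JUN gRNA and PYCR1 -0.06 to 0.07 and CTH -0.17 to 0.09 in WT minus Control gRNA. Those of untreated differences ran over PYCR1 -0.11 to 0.07 in DLK KO minus WT, ALDH18A1 -0.03 to 0.05 and CTH -0.15 to 0.07 in LZK KO minus WT and CTH -0.05 to 0.18 in double KO minus WT.

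Replicate numbers are shared between groups, but the same-numbered untreated and vincristine libraries of a line did not all deviate together (r from -0.501 to 0.374 over 30 such pairs, 10 of which correlated best with their own number), so they were not taken as pairs. With the replicate number as a block, 4 members were called in LZK KO, 3 in JUN gRNA and 3 in untreated DLK KO, 1 fewer each, and the counts of the other 18 comparisons did not move. Counting error and the spread between libraries were not separated. In experiment 1 the standard errors of the vincristine effects were largest for ASNS, CTH and PYCR1 (0.12 to 0.16).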
